A study of Mus musculus with 12 samples.

Results

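The genes described here encode the machinery that copies the genome and brings cells into S phase. Before S phase, the origin recognition complex, Cdc6 and Cdt1 load the MCM2-7 helicase onto DNA, a step called licensing. Mcm10, Cdc45 and the GINS complex then convert the helicase to its active form, polymerases α, δ and ε copy both strands, and the clamp Pcna, loaded by replication factor C, holds polymerases on DNA. E2F transcription factors and E-type cyclins drive the entry into S phase, and their targets include many of the other genes of the group. Macrophages grown from bone marrow proliferate in response to macrophage colony-stimulating factor (mCSF), so these transcripts are present in such cultures. The members were 41 mouse genes chosen by symbol, out of 48526 in the count table, and all 41 were found under 1 identifier each. They were divided by role into 10 licensing genes, 6 genes of helicase activation, 6 of primase and polymerases, 5 of the clamp, its loader and the single-strand binding protein RPA, 3 of Okazaki fragment and uracil processing, 4 of nucleotide supply, 3 of chromatin behind the fork, and 4 G1/S regulators.

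Bone marrow-derived macrophages (BMDMs) came from 3 female C57Bl/6J mice and were grown from whole bone marrow with 10 ng/mL mCSF until day 7. Cultures from every mouse were kept untreated or given 100 ng/mL Wnt3a, 100 pg/mL IL-4 (labelled IL4), or both (labelled Wnt3a+IL4) for 16 hr, which gave 12 bulk RNA-seq samples in 4 groups of 3. The study asked how Wnt signaling alters the response of macrophages to IL-4. In each mouse the Wnt3a and Wnt3a+IL4 columns were not independent: the count in the former lay between 1 and 2 times that in the latter for all 48526 genes, as it would if both columns held the same reads. The columns were therefore split, for each mouse, into a difference (the Wnt3a column minus the Wnt3a+IL4 column) and a remainder (2 times the Wnt3a+IL4 column minus the Wnt3a column). Both parts come from cells that received Wnt3a. The labels do not say which part received IL-4, and no value was used to decide. Library-scaled counts (CPM, counts relative to a fixed total) were computed with edgeR's TMM factors, and each comparison was made with edgeR's quasi-likelihood test over 12421 genes, with a Benjamini-Hochberg adjusted p under 0.05 as the threshold. The fit held no term for the mouse. The p-values therefore rest on the spread between the 3 mice within a group, estimated jointly from untreated, IL-4, difference and remainder libraries.

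Totals were 13342492 to 17113982 counts in untreated and IL-4 libraries and 14171994 to 17453377 in the parts. The labelled cell type was borne out by its markers, since Csf1r, the receptor for mCSF, lay between 4333 and 6153 CPM in the 12 libraries and Lyz2, encoding lysozyme, between 34001 and 57327 CPM. The defining T cell gene Trac was at 0 in every library. Of 5 B cell markers, 4 were under 1 CPM throughout and Cd79b lay between 2.24 and 3.80 CPM. The 6 stromal markers summed to 6.77 to 18.4 CPM in untreated and 8.21 to 28.1 in IL-4 libraries. They summed to 4.14 to 9.77 in difference and 4.61 to 15.0 in remainder libraries, and 4 of the 6 were under 1 CPM throughout. The 7 progenitor markers summed to 20.2 to 29.0 CPM in untreated, 17.2 to 28.5 in IL-4, 8.14 to 17.6 in difference and 9.22 to 23.9 in remainder libraries, mostly from Cd34, and 4 of the 7 were under 1 CPM throughout. The 8 neutrophil markers summed to 40.1 to 58.6, 64.1 to 70.4, 82.8 to 124 and 55.7 to 77.8 CPM in the same order of groups, with Mmp8 the most abundant of them in every library. The progenitor and neutrophil sums moved with Wnt3a or IL-4, and the part of any of these markers in the results was not tested.

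Among the Wnt3a-treated libraries, 2 stood apart in the replication genes. The difference of mouse 1 was the highest of its group in 34 of 41 members, against 39.6% of all genes tested, and the remainder of mouse 2 was the lowest of its group in 32 of 41, against 40% of all genes. In the difference of mouse 1, 9 of 41 members lay at least 1.5-fold above both other mice, against 4.97% of all genes tested. The 9 included Pole, Rrm2, Cdc45, Mcm10 and Uhrf1, and 24 of 26 genes of a mitosis list also lay that far above. In the remainder of mouse 2, 8 of 41 members lay at least 1.5-fold below both other mice, against 3.01% of all genes tested. So did 19 of the 26 mitosis genes. The mitosis genes also set these mice apart without Wnt3a. In the untreated and IL-4 libraries of mouse 1, 12 and 6 of them lay that far above, against 3.53% and 1.18% of all genes. In those of mouse 2, 7 and 8 lay that far below, against 6.88% and 1.63% of all genes. The summed CPM of the mitosis genes was highest in mouse 1 in every group, at 218 untreated, 273 with IL-4, 426 in the difference and 329 in the remainder. The summed CPM of the 41 genes was 730, 620 and 642 in the difference of mice 1, 2 and 3, and 809, 625 and 774 in the remainder. Cd34, the most abundant of the progenitor markers, followed the same order, with 14.1, 5.01 and 5.02 CPM in the difference and 20.9, 6.76 and 16.4 CPM in the remainder. Kit, a further progenitor marker, did not, at 2.63, 2.56 and 2.47 CPM in the difference and 1.37, 1.54 and 2.43 CPM in the remainder. Prtn3 followed it in the remainder (0.994, 0.369 and 0.526 CPM) but not in the difference (0.687, 1.16 and 0.364 CPM). The part of progenitors in the spread of the replication genes was not tested. Untreated libraries summed to 624, 681 and 664 CPM and IL-4 libraries to 837, 877 and 900 CPM, so both groups were tight and did not overlap. Cd34 did not follow the order of these sums. It was at 24.7, 18.5 and 14.8 CPM untreated and 25.3, 14.6 and 17.5 CPM with IL-4, highest in mouse 1, where the replication sum was lowest.

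**Figure D1:**
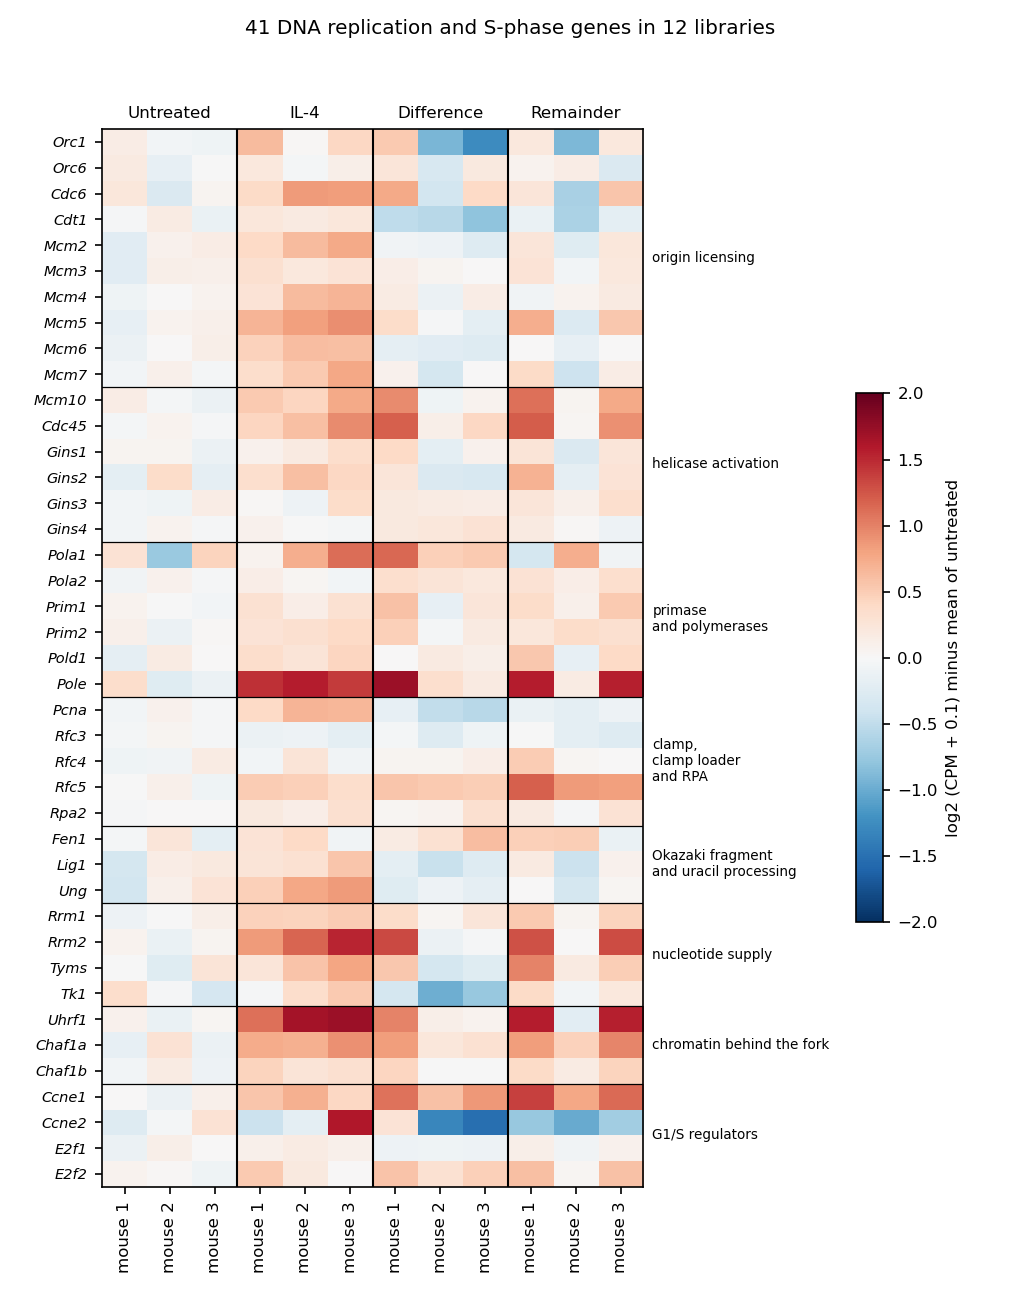
Heat map of the 41 genes (lines, grouped by role) in 12 libraries (columns, by group and mouse), coloured by log2 (CPM + 0.1) minus the mean of the 3 untreated libraries. IL-4 columns are red for most genes, and in the Wnt3a-treated groups the difference of mouse 1 and the remainder of mice 1 and 3 are redder than the other 3 columns.

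**Figure D2:**
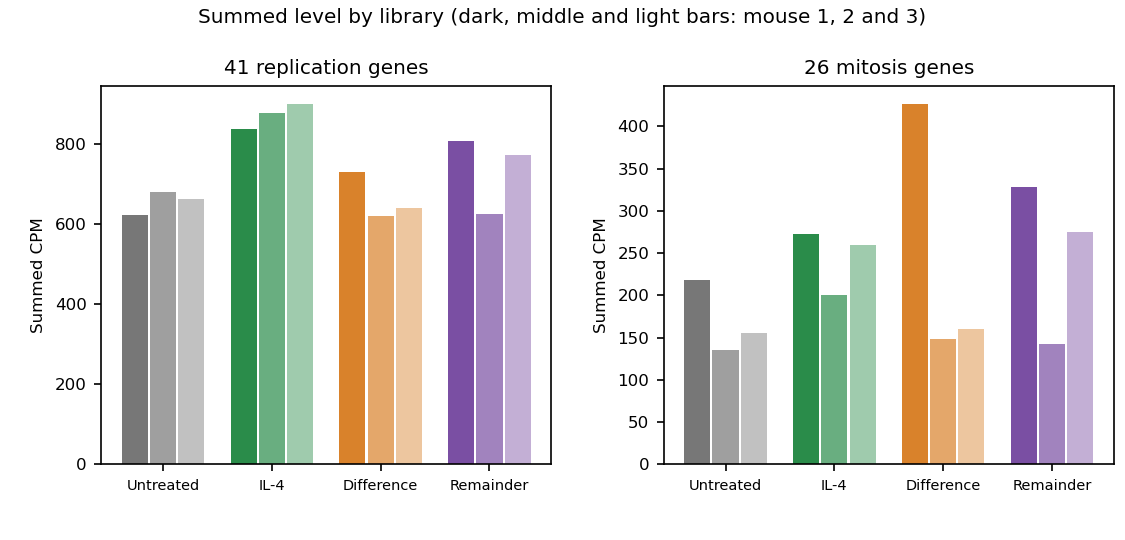
Summed CPM in each library of the 41 replication genes (left) and of 26 mitosis genes (right), with a bar per mouse in each group. Replication genes sum to 837 to 900 CPM in IL-4 libraries against 624 to 681 in untreated ones, and the difference of mouse 1 holds the tallest mitosis bar, at 426 CPM.

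All 41 members passed the filter of at least 10 counts in at least 3 libraries. Levels were compared between genes as CPM per kilobase of exon, averaged over the 12 libraries. The length was that of all annotated exons of a gene joined, for instance 6956 bases for Mcm2 and 4666 for Mcm6. It can exceed the length of the transcripts present, so the order of genes depends in part on the annotation. Pcna was the most abundant, at 35.1 CPM per kilobase. It was followed by Gins4, a GINS subunit, at 19.4, Mcm6 at 15.5, E2f1 at 13.8, Mcm3 at 13, E2f2 at 12.7 and Cdt1 at 11.5. The lowest were Ccne2, the second E-type cyclin, at 0.16, Orc1, the largest origin recognition subunit, at 0.293, and Pole, the catalytic subunit of polymerase ε, at 0.354. The MCM2-7 subunits, which act as a hexamer with each subunit present once, ranged from 2.89 CPM per kilobase for Mcm2 to 15.5 for Mcm6. Some members share exons with a gene on the opposite strand, and the sources used here do not say whether counting used strand. The shared part of the exons was 84.2% for Fen1, 67.3% for Gins2 and 52.5% for Chaf1a, and at most 17.4% for any other member, so values of these 3 genes are uncertain.

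The promoters of several members are shown because E2F factors bind short words near the start of replication genes, and because these genes moved in opposite directions with Wnt3a. Windows of 300 bases, from 250 before to 50 after each start, were taken from RefSeq (GRCm38.p6) and were at hand for 34 of the 41 genes. E2F words were TTTCCCGC, TTTGGCGC, TTTGCCGC and TTTCGCGC on either strand, and the CCAAT box was searched as CCAAT on either strand. Words of the 2 kinds may lie side by side, and E2F words may overlap each other. The 3 genes printed first had the lowest adjusted p for Wnt3a among those with an E2F word, and Pcna the lowest among those without. Capitals mark E2F words and CCAAT boxes. Sequences are given 5′ to 3′ on the strand of the gene.
Mcm6, chr1:128359656-128359955, minus strand: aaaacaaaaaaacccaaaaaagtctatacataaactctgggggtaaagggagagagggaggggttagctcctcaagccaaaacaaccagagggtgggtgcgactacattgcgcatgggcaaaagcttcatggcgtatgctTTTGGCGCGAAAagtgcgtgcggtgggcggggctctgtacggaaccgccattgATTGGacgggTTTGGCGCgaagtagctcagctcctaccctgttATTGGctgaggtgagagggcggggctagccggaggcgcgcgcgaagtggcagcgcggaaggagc
Cdt1, chr8:122567765-122568064, plus strand: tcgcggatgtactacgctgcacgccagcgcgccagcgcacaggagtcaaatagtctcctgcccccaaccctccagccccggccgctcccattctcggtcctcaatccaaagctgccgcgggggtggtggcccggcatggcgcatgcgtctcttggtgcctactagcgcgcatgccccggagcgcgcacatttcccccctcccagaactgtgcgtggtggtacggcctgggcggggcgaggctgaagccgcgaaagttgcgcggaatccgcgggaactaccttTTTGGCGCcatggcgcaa
E2f2, chr4:136172024-136172323, plus strand: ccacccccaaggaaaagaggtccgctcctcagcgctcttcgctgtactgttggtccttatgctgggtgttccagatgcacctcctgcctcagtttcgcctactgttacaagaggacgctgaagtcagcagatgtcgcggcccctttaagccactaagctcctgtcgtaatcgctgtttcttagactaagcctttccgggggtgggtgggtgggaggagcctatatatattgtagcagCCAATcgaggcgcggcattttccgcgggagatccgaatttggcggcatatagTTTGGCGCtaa
Pcna, chr2:132253131-132253430, minus strand: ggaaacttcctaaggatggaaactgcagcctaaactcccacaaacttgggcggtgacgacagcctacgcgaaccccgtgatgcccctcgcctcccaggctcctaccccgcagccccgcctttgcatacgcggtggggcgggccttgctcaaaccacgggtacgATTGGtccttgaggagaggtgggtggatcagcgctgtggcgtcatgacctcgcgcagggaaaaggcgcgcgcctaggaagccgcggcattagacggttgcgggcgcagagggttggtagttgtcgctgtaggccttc
The Mcm6 window held 3 E2F words, 2 of which overlap and start 110 and 106 bases before the start site, and 2 CCAAT boxes. The Cdt1 and E2f2 words lay 32 and 39 bases after the start, and E2f2 has a second RefSeq window that held none. An E2F word was found for 14 of 34 members (41.2%), against 34.0% of 47 genes of a wider replication list, 4.35% of 23 mitosis genes, 4.77% of 9480 genes tested and 2.6% of all 27025 genes with a window. A CCAAT box was found for 58.8% of the members, 53.2% of the wider list, 82.6% of the mitosis genes, 42.7% of genes tested and 41.1% of all genes. These shares describe letters in a window and not binding.

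**Figure D3:**
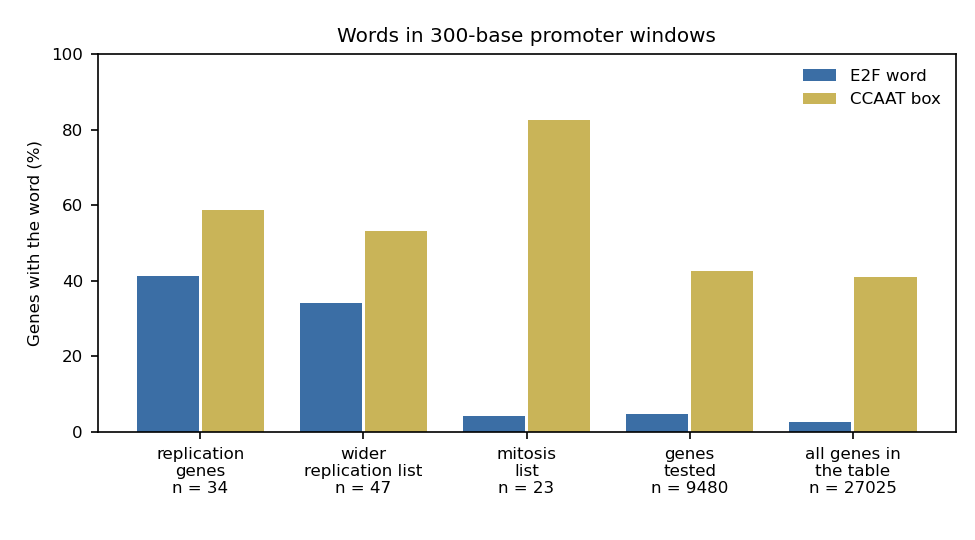
Share of genes (%) whose 300-base promoter window holds an E2F word (blue) or a CCAAT box (yellow) in 5 sets of genes, with the number of genes in each. E2F words were found for 41.2% of the replication genes and 4.35% of the mitosis genes, while CCAAT boxes were found for 58.8% and 82.6%.

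IL-4 alone came with higher levels across the group. The fold change of IL-4 over untreated was positive for 40 of 41 genes, with a median log2 fold change of 0.44, and 33 genes were higher in IL-4 in all 3 mice. In 26 genes every IL-4 library lay above every untreated library, against 10.8% of all genes tested. The test called 8 genes higher, 19.5% of the members, against 2.31% of all genes tested that were called higher (1.09% were called lower). These were 4 subunits of the MCM helicase (Mcm2, Mcm4, Mcm5 and Mcm6), Pcna, Rrm1, Uhrf1 and Chaf1a. The other 33 did not pass. The members were chosen with earlier results of these data known, so these shares are a description and not a test of the group. In bulk RNA, a larger share of cells in S phase and more of these transcripts per cell cannot be told apart.

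Mcm6, a subunit of the replicative helicase (ENSMUSG00000026355, mm10 chr1:128331590-128359664), was at 62.1, 67.1 and 72.4 CPM in untreated cells of mice 1, 2 and 3 and at 92.8, 103 and 102 CPM with IL-4. The groups did not overlap, and its log2 fold change of 0.56 (SE 0.08) had the lowest adjusted p of the members, 0.000906. Pcna, the sliding clamp (ENSMUSG00000027342, mm10 chr2:132249162-132253314), was at 77.7, 85.4 and 79.7 CPM untreated and at 106, 130 and 128 CPM with IL-4, a log2 fold change of 0.59 (SE 0.10, adjusted p 0.0046). Mcm4 was at 20.6, 22.1 and 23.1 CPM untreated and 26.4, 33.9 and 35.1 CPM with IL-4. Its log2 fold change was 0.54 (SE 0.12, adjusted p 0.0278), so these 3 genes moved by a like amount of about 1.5-fold. Chaf1a, a subunit of the chromatin assembly factor that deposits histones behind the fork, rose from 5.0, 6.88 and 5.21 CPM to 9.53, 9.33 and 10.7 CPM (1.73-fold, adjusted p 0.0387). Uhrf1, which brings the maintenance methyltransferase to newly copied DNA, had the largest fold among called genes, from 4.19, 3.6 and 4.08 CPM to 8.63, 12.8 and 13.1 CPM (2.9-fold, adjusted p 0.042). Rrm1, the large subunit of ribonucleotide reductase, rose from 33.1, 35.1 and 38.2 CPM to 49.0, 48.2 and 50.2 CPM (1.39-fold, adjusted p 0.0482). Every IL-4 library was above every untreated one for these genes too. With the mouse as a block, the adjusted p was 0.0615 for Mcm2, 0.0644 for Mcm5 and 0.0636 for Chaf1a, that of Pole was 0.0369, and 6 members were called. Leaving out any single untreated or IL-4 library left 2 to 4 members called, with Mcm6 and Pcna called each time. Without the difference of mouse 2 or 3 or the remainder of mouse 3, which enter this comparison only through the shared estimate of spread, 5, 3 and 5 were called. Without mouse 1, 2 or 3 the members called were 3, 5 and 0, and without mouse 3 the test called 77 genes in all and 38 of 40 members were positive.

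The genes were also read by role, with no test between roles. All 10 licensing genes were positive and 4 passed, with a median log2 fold change of 0.55, and their summed CPM was 216 to 243 in untreated and 304 to 338 in IL-4 libraries. The 6 genes of helicase activation were positive with a median of 0.33 and did not pass, nor did the 6 primase and polymerase genes (median 0.34). The largest difference among these was that of Pole, at 2.47, 1.61 and 1.76 CPM untreated and 5.45, 5.88 and 5.20 CPM with IL-4 (2.81-fold, adjusted p 0.0776). Rrm2, the small ribonucleotide reductase subunit whose level follows S phase, showed a similar contrast, at 4.46, 3.86 and 4.39 CPM against 7.67, 9.59 and 12.3 CPM (2.32-fold, adjusted p 0.126). Both had separate groups but missed the threshold. Lig1, the ligase that seals Okazaki fragments, was at 16.3, 23.2 and 23.8 CPM untreated and 24.8, 25.8 and 30.4 CPM with IL-4 (adjusted p 0.355). Pold1, the catalytic subunit of polymerase δ, was at 20, 25.3 and 22.8 CPM untreated and 28.8, 27 and 30.4 CPM with IL-4 (log2 fold change 0.34, SE 0.15), and at 22.8, 25.8 and 24.5 CPM in the difference and 33.1, 20.3 and 29.8 CPM in the remainder. Its IL-4 libraries lay above the untreated ones, though it did not pass in any comparison. Chaf1b, the partner of Chaf1a, was at 7.74, 9.07 and 7.53 CPM untreated, 11.1, 9.71 and 10.1 with IL-4 (log2 fold change 0.35, SE 0.15), 10.9, 8.06 and 8.07 in the difference and 10.6, 9.09 and 11 in the remainder. It did not pass either. Gins4 was at 24, 26.1 and 24.5 CPM untreated and 26.3, 24.7 and 24 CPM with IL-4, so these groups overlapped, and at 28.4, 28.9 and 30.3 CPM in the difference and 28.2, 25.3 and 23.1 CPM in the remainder. Rfc3, a subunit of the clamp loader, was the only member with a negative value, a log2 fold change of -0.14 (SE 0.11).

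**Figure D4:**
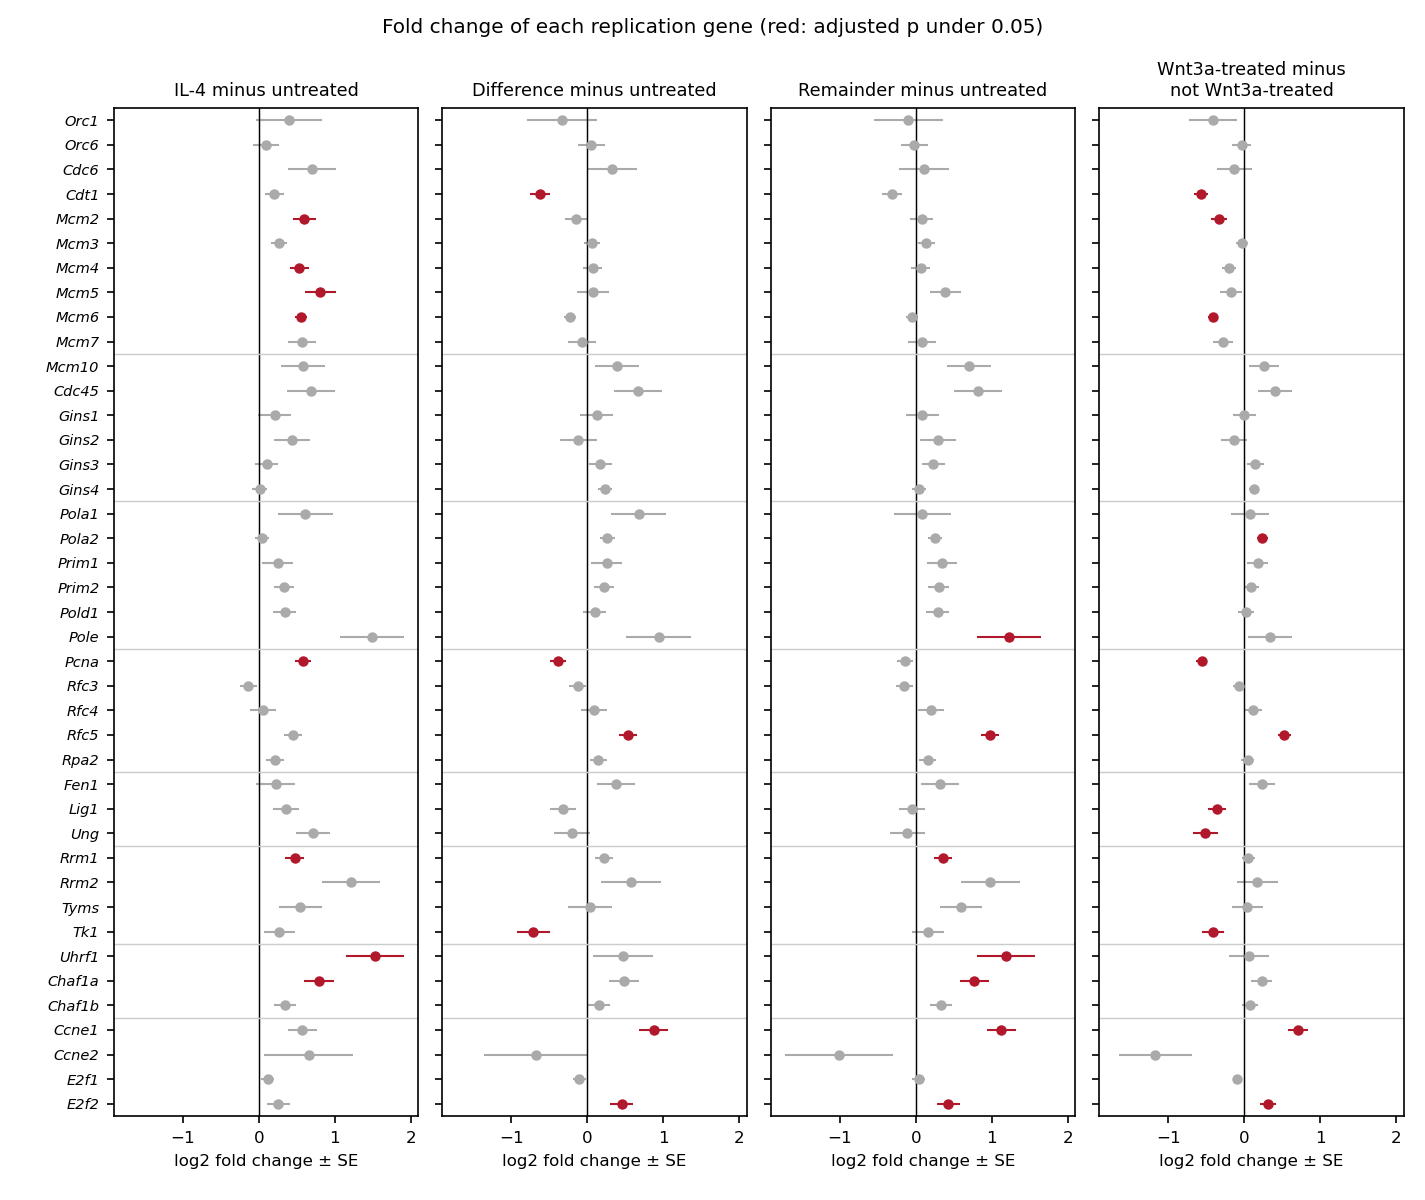
Log2 fold change of each of the 41 genes with its standard error (bars) in 4 comparisons, red where the adjusted p was under 0.05 and grey otherwise, with lines between roles. In the IL-4 panel 40 of 41 points lie right of 0, while with Wnt3a points lie on both sides.

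Wnt3a, compared as the mean of difference and remainder minus the mean of untreated and IL-4, did not move the group one way. Of the 41 genes 23 were positive, the median log2 fold change was 0.04, and the test called 4 higher (9.76% of members, against 16.5% of all genes) and 7 lower (17.1%, against 16.1% of all genes). These shares are near or under the background of this large contrast. Those that fell were Pcna, Cdt1, Mcm6, Mcm2, Lig1, Tk1 and Ung, and those that rose were Ccne1, Rfc5, E2f2 and Pola2. The balance of directions rested on single mice: without mouse 1, 11 of 40 were positive (median -0.10) and 2 were called higher and 9 lower, and without mouse 2, 27 of 41 were positive (median 0.13) and 6 were called higher and 3 lower. When scaled by library totals, 17 were positive, the median was -0.03, and 3 were called higher and 9 lower. Pcna, Mcm6, Cdt1, Rfc5 and Ccne1 were called whichever mouse or library was left out, and the others lost the call without at least 1 of the mice. In all, 5 members were called without mouse 3, and 6 or 7 without the untreated or IL-4 library of mouse 2 or 3 or the difference of mouse 3.

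Pcna was at 72.3, 57.5 and 55.2 CPM in the difference and 73.5, 70.9 and 75.4 CPM in the remainder, below all untreated and IL-4 libraries (log2 fold change -0.56, SE 0.07, adjusted p 4.01e-05). Cdt1, the licensing factor that brings MCM to origins (ENSMUSG00000006585, mm10 chr8:122568015-122573554), was at 39.3, 44.8 and 36.4 CPM untreated, 46.9, 45.4 and 46.8 with IL-4, 28.1, 27.4 and 22.8 in the difference and 36.3, 25.8 and 35.1 in the remainder. Its Wnt3a-treated libraries also lay below all others (log2 fold change -0.57, SE 0.09, adjusted p 0.000233). These were the only members of which all 6 Wnt3a-treated libraries lay below all 6 others, a pattern that 6.91% of all genes showed. Mcm6 was at 59.0, 57.5 and 56.1 CPM in the difference and 67.6, 60.0 and 67.7 CPM in the remainder, so the latter overlapped untreated cells (log2 fold change -0.41, SE 0.06, adjusted p 6.02e-05). The other called decreases were those of Mcm2 (-0.34), Lig1 (-0.36), Tk1 (-0.41) and Ung (-0.51). Tk1 is the S-phase thymidine kinase, and Ung removes uracil from DNA. Against untreated cells alone, the log2 fold change was -0.15 for Mcm2, -0.31 for Lig1 and -0.2 for Ung in the difference. In the remainder it was 0.079, -0.047 and -0.11, and none of these values passed. Tk1 was at -0.71 in the difference, which passed, and at 0.16 in the remainder, which did not. The called decreases of these genes thus depend in part on the IL-4 libraries in the comparator. Lig1 was at 18.1, 15.3 and 17.4 CPM in the difference and 23.7, 15.4 and 22.1 CPM in the remainder, where it overlapped untreated cells.

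The genes that rose with Wnt3a act in different steps. Rfc5, a small subunit of the clamp loader (ENSMUSG00000029363, mm10 chr5:117378103-117389047), was at 10.2, 10.9 and 9.53 CPM untreated, 14.4, 14.3 and 13 with IL-4, 15.1, 14.7 and 14.4 in the difference and 23.5, 18.4 and 18.1 in the remainder. Its remainder libraries lay above all others (log2 fold change with Wnt3a 0.53, SE 0.08, adjusted p 0.000203). Ccne1, the E-type cyclin that activates Cdk2 at the G1/S border (ENSMUSG00000002068, mm10 chr7:38097984-38107534), was at 3.49, 3.22 and 3.76 CPM untreated, 5.15, 5.75 and 4.69 with IL-4, 7.5, 5.25 and 6.47 in the difference and 9.13, 6.02 and 7.75 in the remainder. All 6 Wnt3a-treated libraries were above the untreated ones, though 1 of them overlapped IL-4 (log2 fold change with Wnt3a 0.71, SE 0.13, adjusted p 0.000736). E2f2, an activating E2F, was at 52.8, 51.1 and 47.7 CPM untreated, 72.6, 58.2 and 50.7 with IL-4, 74.8, 62.7 and 70.2 in the difference and 76.8, 52.0 and 75.5 in the remainder. Its groups overlapped through the remainder of mouse 2 and the IL-4 library of mouse 1 (log2 fold change with Wnt3a 0.31, adjusted p 0.0343). Pola2, the second subunit of polymerase α, was the only member with all 6 Wnt3a-treated libraries above all 6 others, a pattern that 8.32% of all genes showed, and changed least (1.18-fold, adjusted p 0.0137).

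By role, all 10 licensing genes had negative values with Wnt3a when untreated and IL-4 libraries together were the comparator (median log2 fold change -0.24, 3 called) and all 6 primase and polymerase genes had positive ones (median 0.14, 1 called), or 5 of 6 when scaled by library totals. Against untreated cells alone, 5 of the 10 licensing genes were positive in the difference (median -0.01, 1 called lower) and 6 in the remainder (median 0.07), so the negative values depend on the IL-4 libraries in the comparator. Of the 6 genes of helicase activation 5 were positive with Wnt3a (median 0.14), and they did not pass. In the clamp loader, Rfc5 rose, while Rfc3 (log2 fold change -0.07, SE 0.08) and Rfc4 (0.12, SE 0.12) did not pass. Of the E-type cyclins, Ccne1 rose and Ccne2 had a log2 fold change of -1.17 (SE 0.48, adjusted p 0.0778) at levels under 1 CPM in 11 of 12 libraries. E2f1 had a log2 fold change of -0.09 (SE 0.06) and did not pass.

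**Figure D5:**
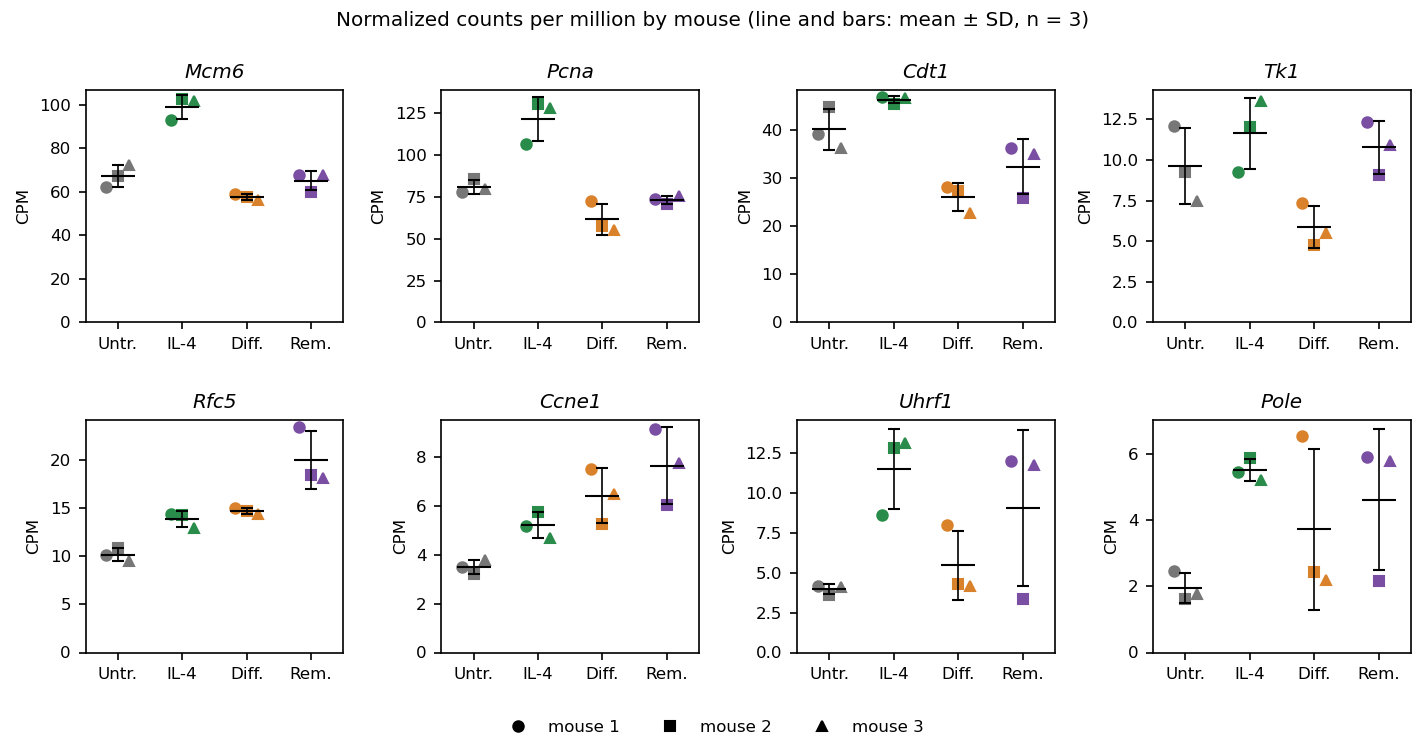
Normalized CPM of 8 genes in each mouse (symbols) for untreated, IL-4, difference and remainder libraries, with the mean and SD of 3 mice in black. Mcm6, Pcna and Cdt1 are lower in the Wnt3a-treated groups than with IL-4, Rfc5 and Ccne1 are higher than untreated, and Uhrf1 and Pole show the mouse 1 difference and the mouse 2 remainder apart from their groups.

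Each Wnt3a-treated part was also compared with the same untreated libraries. In the difference, 3 members were called higher, against 11.8% of all genes, and 3 lower, against 11.4%, with 28 of 41 positive and a median log2 fold change of 0.12. Those were Ccne1 (0.88), Rfc5 (0.53) and E2f2 (0.45), and Cdt1 (-0.62), Tk1 (-0.71) and Pcna (-0.39). In the remainder, 7 members were called higher, or 17.1%, against 13.6% of all genes (11.7% were called lower), with 32 positive and a median of 0.21. They were Rfc5 (0.97), Ccne1 (1.13), Chaf1a (0.77), Uhrf1 (1.19), Rrm1 (0.36), E2f2 (0.43) and Pole (1.23). Scaled by library totals, the calls were 2 higher and 4 lower in the difference and 3 higher and 1 lower in the remainder.

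Uhrf1, Pole and Rrm1 were split by mouse in the remainder. Uhrf1 was at 12, 3.38 and 11.8 CPM there, and at 7.96, 4.27 and 4.14 CPM in the difference. Pole was at 5.90, 2.15 and 5.78 CPM in the remainder and 6.52, 2.44 and 2.18 CPM in the difference. In the remainder of mouse 2, Uhrf1 was thus below and Pole within its untreated range. Chaf1a had less spread, at 10.2, 7.80 and 11.2 CPM in the remainder and 10.1, 6.59 and 6.98 CPM in the difference. Rrm1 was at 51.0, 36.9 and 48.4 CPM in the remainder and 45.7, 36.3 and 41.8 CPM in the difference. Without the remainder of mouse 2, 13 members were called in the remainder against untreated cells in place of 7, and without mouse 2 altogether, 15. Without any 1 of the untreated libraries, the IL-4 library of mouse 2 or 3, or the remainder of mouse 1 or 3, only 3 or 4 were called there. Without the difference of mouse 3, 3 members were called in the difference. Without mouse 3, 2 members were called in the remainder and 0 in the difference, and without mouse 1, 2 in the remainder. Rfc5 and Ccne1 were called in the remainder whichever mouse or library was left out.

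Between the Wnt3a-treated parts, remainder minus difference, 2 members were called, both higher in the remainder (4.88%, against 2.87% of all genes called higher and 2.38% lower). Tk1 was at 12.1, 9.26 and 7.46 CPM untreated, 9.29, 12 and 13.6 with IL-4, 7.33, 4.76 and 5.53 in the difference and 12.4, 9.09 and 10.9 in the remainder. It differed 1.83-fold between the parts (SE 0.21 on a log2 difference of 0.87, adjusted p 0.0305), with every remainder library above every difference library. Rfc5 differed 1.36-fold (adjusted p 0.0419) and was no longer called with the mouse as a block (adjusted p 0.0508). The other 39 members did not pass. Neither gene was called without mouse 2 or 3, the IL-4 library of mouse 2, the difference of mouse 2 or 3, or the remainder of mouse 1 or 3. Rfc5 alone lost the call without mouse 1, the untreated library of mouse 3, the IL-4 library of mouse 1 or 3, or the difference of mouse 1, and without the remainder of mouse 2, 5 members were called. By edgeR 0 members were called without mouse 3. Of the 41 genes, 30 were higher in the remainder on average, with a median log2 difference of 0.15.

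Whether Wnt3a altered the difference that IL-4 made was tested as an interaction, under both assignments of the parts. If the remainder received both Wnt3a and IL-4, the IL-4 effect with Wnt3a was (remainder minus difference), and no member passed edgeR's test, against 0.0403% and 0.0644% of all genes called higher and lower. At an unadjusted p under 0.05 there were 4, and DESeq2 called 0. The interaction was negative for 35 of 41 genes, with a median of -0.25. The lowest p-values belonged to Mcm6 at -0.38 (SE 0.11, adjusted p 0.213), Mcm4 at -0.54 (SE 0.18, adjusted p 0.242) and Pola1, the catalytic subunit of polymerase α, at -1.20 (SE 0.51, adjusted p 0.35). Mcm4 was at 24.6, 20.1 and 24.3 CPM in the difference and 20.9, 23.0 and 24.9 in the remainder. Its parts overlapped, where the untreated and IL-4 libraries did not. Pola1 was at 3.65, 1.74 and 4.08 CPM untreated, 3.12, 4.98 and 6.57 with IL-4, 6.70, 4.15 and 4.29 in the difference and 2.30, 4.98 and 2.83 in the remainder, so that IL-4 overlapped untreated cells and the parts overlapped each other.

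If instead the difference received both, 9 members were called, all negative (22.0%, against 4.42% of all genes called lower and 2.91% higher), and 39 of 41 values were negative with a median of -0.53. Mcm6 had the lowest adjusted p, 0.000828, at -0.74 (SE 0.11), followed by Pcna at -0.83 and Rfc5 at -0.89. The log2 values behind these were 0.56, 0.59 and 0.45 for IL-4 minus untreated, of which that of Rfc5 missed the threshold (adjusted p 0.0607), and 0.18, 0.25 and 0.44 for remainder minus difference, of which those of Mcm6 and Pcna missed it (adjusted p 0.252 and 0.222). Both assignments thus gave a negative interaction for most members, of different size, and only the second passed for any of them. Both subtract the same IL-4 minus untreated value and differ only in the sign of remainder minus difference. Negative values under both therefore follow wherever IL-4 raised a gene by more than the parts differed, and are not separate results. The 9 became 0 without mouse 3 and 16 without the remainder of mouse 2, and 3 to 5 without the untreated library of mouse 1 or 3, the IL-4 library or difference of mouse 2 or 3, or the remainder of mouse 1 or 3. Mcm6, Pcna and Rfc5 were called whichever single library was left out, and Pole, at an adjusted p of 0.0886, passed with the mouse as a block (adjusted p 0.0414).

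Other genes of the pathway moved less with IL-4 than the members, by their medians. A wider list of 61 genes, of which 60 were tested, held the remaining origin, polymerase, fork protection, histone supply and nucleotide genes. With IL-4, 50 of the 60 were positive with a median log2 fold change of 0.19. In that comparison edgeR called 0, against 2.31% of all genes called higher and 1.09% lower. There were 13 at an unadjusted p under 0.05, and DESeq2 called 1. With Wnt3a, 5 were called higher and 2 lower, against 16.5% and 16.1% of all genes. Dck, deoxycytidine kinase of the nucleotide salvage path, was at 53.7, 41.8 and 55.8 CPM untreated, 62.5, 55.7 and 63.2 with IL-4, 134, 103 and 104 in the difference and 154, 143 and 137 in the remainder. All its Wnt3a-treated libraries lay above the others (log2 fold change 1.22, SE 0.09, adjusted p 7.55e-08). Dna2, a nuclease that trims Okazaki flaps, was at 18.4, 14.3 and 12.4 CPM untreated, 20.8, 18.9 and 21.3 with IL-4, 28.4, 23.8 and 24.8 in the difference and 30.1, 31 and 29.5 in the remainder. Its log2 fold change was 0.67 (SE 0.09) and that of Rfc2, a further clamp loader subunit, was 0.36 (SE 0.05). The origin-firing kinase gene Cdc7 (0.73, SE 0.20) and the fork factor gene Wdhd1 (0.33, SE 0.12) also rose. Those that fell were Cdca7, a chromatin factor and known MYC target, at -1.64 (SE 0.17), and Slbp, which binds the stem-loop of replicative histone mRNAs, at -0.30 (SE 0.08). In the difference against untreated cells 6 of the wider list were called higher and 1 lower (11.8% and 11.4% of all genes), in the remainder 6 higher and 4 lower (13.6% and 11.7% of all genes; the lower ones were Cdca7, Pold3, Slbp and Rrm2b), and between the parts 1, Cdca7, was higher in the remainder.

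Mitosis genes, expressed after S phase, were more variable between mice than the replication genes. Of 26, 24 were positive with IL-4 (median log2 fold change 0.53) and edgeR called 0, with 4 at an unadjusted p under 0.05 and 0 called by DESeq2. With Wnt3a 3 were called higher, the spindle checkpoint kinase gene Bub1b (0.75, SE 0.21), the mitotic cyclin gene Ccnb1 (0.70, SE 0.25) and Aurkb, encoding Aurora B (0.43, SE 0.15). The kinesin gene Kif23 was the 1 called lower (-0.79, SE 0.25). Of all genes tested, 16.5% were called higher and 16.1% lower in that comparison. Within the difference, the 3 genes called higher were highest in mouse 1, with Bub1b at 29.9, 14.7 and 13.5 CPM. Mki67, the proliferation antigen, was at 21.7, 8.17 and 13.6 CPM untreated, 18.2, 15.8 and 22.2 with IL-4, 49.0, 13.9 and 14.5 in the difference and 18.2, 12.1 and 15.1 in the remainder. Its groups overlapped, and it was not called in any comparison. Of upstream regulators, Ccnd1, encoding the cyclin D1 that starts the release of E2F, was at 22.0, 31.3 and 32.3 CPM untreated and 42.3, 61.9 and 61.0 with IL-4 (log2 fold change 0.95, adjusted p 0.00509). It dropped to 2.75, 3.11 and 2.98 CPM in the difference and 9.0, 7.07 and 10.1 in the remainder. Myc, a transcription factor that drives growth, was at 10.8, 13.8 and 11.7 CPM untreated, 18.3, 20.4 and 22.9 with IL-4, 2.12, 2.38 and 2.54 in the difference and 7.2, 5.78 and 6.77 in the remainder. It moved in the same directions, with log2 fold changes of 0.77 with IL-4, -2.36 in the difference and -0.87 in the remainder against untreated cells. Of 6 tested D cyclins, their kinases and Myc family genes, these 2 rose with IL-4, and 4 fell with Wnt3a, the others being Ccnd2 (-0.76, SE 0.21) and the kinase gene Cdk6 (-0.76, SE 0.12). Ccnd1 and Myc thus fell with Wnt3a in both parts, where Ccne1 and E2f2 rose. Cdkn1a, the cyclin-dependent kinase inhibitor p21, was called higher in the remainder against untreated cells (log2 fold change 0.52, adjusted p 0.0445) and Cdkn1b, the inhibitor p27, lower (-0.31, adjusted p 0.0365). Cdkn1a was at 184, 240 and 205 CPM untreated and 398, 224 and 280 CPM in the remainder, so its groups overlapped and mouse 2 was lower in the remainder. Of 9 tested kinase inhibitors and pocket proteins, edgeR called 0 with IL-4 (2 at an unadjusted p under 0.05, 0 by DESeq2) and with Wnt3a 1 in each direction, Cdkn2b higher (0.71, SE 0.22) and Cdkn1c lower (-1.63, SE 0.21). Of 8 other genes of E2F factors and their partners, edgeR called 0 with IL-4 (1 at an unadjusted p under 0.05, 0 by DESeq2), while the repressors E2f8 (0.62, SE 0.16) and E2f6 (-0.35, SE 0.07) were called higher and lower with Wnt3a. Csf1r had a log2 fold change of -0.19 (adjusted p 0.0411) with Wnt3a.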

How the data were processed

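Bulk RNA-seq of BMDMs from 3 mice under 4 conditions was analysed. The authors trimmed single reads (Trimmomatic 0.36), aligned them to mm10 (STAR 2.6.0), counted them on genes (HTSeq 0.11.1) and deposited raw counts per gene, without normalization. Strand settings are not given in the sources used here. Symbols came from a mouse gene table (48058 of 48526 identifiers matched), and positions and exon lengths from GENCODE of the same build. The authors tested with DESeq2 1.24.0.

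The Wnt3a and Wnt3a+IL4 columns of each mouse share reads and were replaced by difference and remainder. Genes that reached 10 counts in 3 or more libraries were fitted in edgeR 4.0.16 (R 4.3.3), with 12 libraries in a single fit and no term for the mouse. Alternatives were DESeq2 1.42.0, DESeq2 size factors, library totals, other filters and thresholds, only the groups compared, the mouse as a replicate block, each mouse or library left out, and the columns as deposited. Labels name the mouse, so samples are paired by animal. As a check, each library's deviation from its group mean was correlated with that of the same mouse in another group, which gave -0.417 to 0.454 over 18 pairs, with 6 above 0.1. On simulated counts (IL-4 minus untreated, 12421 genes), the test recovered 28 of 67 genes changed 1.5-fold, 51 of 67 changed 2-fold and 65 of 66 changed 4-fold, with 14 false calls, and 0 calls in an unchanged comparison. Counts limit precision most for the lowest genes, Ccne2 and Orc1.

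The members, lists and rules were chosen with earlier results of these data known. All members may be named. Values in every library are given for the most abundant member of each role and the 3 lowest p-values of each comparison. Cdkn1a, Cdkn1b, Ccnd1, Myc, Mki67 and Csf1r and the 3 lowest adjusted p-values in each direction of the wider list were to be named. Uhrf1, Pole, Rrm2, Cd34, Kit, Prtn3, Mmp8, Ltf, Ngp, Cd79b, Ccnd2, Cdk6, Cdkn2b, Cdkn1c, E2f6, E2f8, Bub1b, Ccnb1, Aurkb, Kif23, Cdc7, Wdhd1 and Rrm2b were added after their values were seen.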

Additional observations from a re-analysis of the deposited data

Results flagged for a closer look

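The IL-4 effect differed between cells with and without Wnt3a in 9 replication genes, if the difference is taken as the part that received both agents. A test of that difference itself, the interaction in edgeR's quasi-likelihood fit, passed an adjusted p of 0.05. The interaction, as a log2 value, was -0.7373 for Mcm6, -0.8324 for Pcna, -0.8916 for Rfc5 and -0.8287 for Mcm2. It was -1.133 for Mcm5, -1.084 for Chaf1a, -1.142 for Tk1, -0.6096 for Rrm1 and -2.248 for Uhrf1. If the remainder received both agents, none of the 9 passed, with 4 members of the 41 at an unadjusted p under 0.05 and 0 called by DESeq2, and Tk1 and Rfc5 had values of 0.60 and -0.01. The labels do not give the assignment. Uhrf1 had 7.96 CPM in the difference of mouse 1 and 3.38 CPM in the remainder of mouse 2, the libraries that stand apart from their groups in the replication genes. Their part in the interaction was tested only by leaving libraries out. Without the difference of mouse 1, 13 members were called, and without the remainder of mouse 2, 16. The count of 0 came without mouse 3.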

How the results depend on the processing

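Counts of called members moved with the setting. The median log2 fold change kept its sign in 6 of the 7 comparisons and changed it with Wnt3a. No called gene changed sign. Leaving out a mouse or library gave 0 to 9 called members for IL-4, 0 to 8 for the difference, 2 to 15 for the remainder, 0 to 5 between the parts, 5 to 13 for Wnt3a, 0 in each case for the interaction with the remainder taken as Wnt3a+IL4 and 0 to 16 with the difference so taken. Medians then ranged from 0.3529 to 0.455, 0.01551 to 0.21, 0.1519 to 0.2958, 0.05537 to 0.2667, -0.09621 to 0.1265, -0.3516 to -0.1355 and -0.7379 to -0.471. The lowest counts came without mouse 3 and the highest mostly without the remainder of mouse 2. Those without a mouse rest on 2 mice a group. Scaling by library totals gave 2 called for IL-4, 4 for the remainder and 1 between the parts. It moved the median of all genes to -0.06, -0.10 and -0.13 for IL-4, difference and remainder against untreated cells, and that of the members to 0.39, 0.04 and 0.10. Testing all genes with at least 1 count gave 11 for the difference, 11 for the remainder, and 2 and 16 for the interactions. An adjusted p of 0.01 gave 2, 3, 3, 0, 5 and 3 for IL-4, difference, remainder, between the parts, Wnt3a and the second interaction, and a further limit of 1 on the size of the log2 fold change gave 1, 0, 3, 0, 0 and 4. Only the groups compared gave 3 for the remainder and 1 between the parts. The mouse as replicate block gave 1 between the parts and 6 for IL-4, and changed no call beyond those given above. The columns as deposited gave 0 members between the Wnt3a and Wnt3a+IL4 columns (0 of 13368 genes) and 1 for the first interaction, with no value for the second. Those columns share reads, so this setting is no measure of how far the Wnt3a-treated cultures differ. Why the counts moved with the other settings was not tested. Of 2831 values of single genes under the alternatives, 356 lost and 37 gained a call.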
